A study of Drosophila melanogaster with 12 samples.

Results

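The 6 genes described here are non-coding loci of Drosophila melanogaster whose RNA in the male reproductive tract differed between 96 and 48 h of adult age. They are 3 long non-coding RNA genes (lncRNA:CR44481, lncRNA:CR44726 and lncRNA:CR44672), 2 antisense RNA genes (asRNA:CR45384 and asRNA:CR45149) and 1 annotated pseudogene, CR43086. They were taken by name from the 17559 genes of the count tables, of which 3568 are annotated as non-coding genes or pseudogenes, and all 6 passed the filter on low counts. They were chosen by their counts in these same libraries, selected on a rise or fall between 48 and 96 h, with no threshold stated. Their age change is therefore a description here, without a test, and the tests concern the mating regimes and the genes around them.

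The tracts came from virgin males of 6 populations founded from the IV population and kept for 168 generations under a set mating regime. In the 3 polygamous populations, groups of 5 males and 5 females mated, and in the 3 monogamous populations 1 male was paired with 1 virgin female. In both regimes males were removed after 2 days and females laid eggs for 3 days in groups of 50. The 4 groups, each of 3 libraries, are polygamous males at 96 h, polygamous males at 48 h, monogamous males at 96 h and monogamous males at 48 h. The labels name no mutation or transgene in any of them. Each library was 1 pool of 30 tracts of 1 population at 1 age, sequenced as stranded total RNA. The tissue label gives accessory glands, testes and ejaculatory duct, while the source label gives the accessory gland. A population is the replicate, with 1 pool and 1 library at each age. The error between groups therefore mixes the spread between evolving lines with that between pools and libraries. For age the same lines are on both sides, and the main fit does not pair them.

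Each library held 31367030 to 40581251 gene counts, so 3 counts were worth 0.0727 to 0.0990 CPM (counts per 1000000, scaled by library size and normalisation factor). Markers of all 3 organs were present in every library. Those of the ejaculatory duct and bulb summed to 1843 to 3394 CPM at 96 h and to 3876 to 5006 CPM at 48 h, without overlap, and those of testis to 5559 to 6307 CPM at 96 h and 5675 to 7807 CPM at 48 h. Accessory gland main cell markers summed to 11735 to 13974 CPM at 96 h and 5201 to 23051 CPM at 48 h, and secondary cell markers to 583 to 752 CPM at 96 h and 86.3 to 792 CPM at 48 h. The part of these shifts in the age changes below was not tested. One library lay far from the rest, that of monogamous population 1 at 48 h. Its 6 main cell markers summed to 5201 CPM against 17495 to 23051 CPM in the other 48 h libraries, and its 3 secondary cell markers to 86.3 CPM against 490 to 792 CPM. Its 8 fat body markers summed to 233 CPM against 65.2 to 106 CPM in the others at 48 h, its 8 haemocyte and basement membrane markers to 382 CPM against 206 to 253 CPM, and its 9 testis markers to 7807 CPM against 5675 to 6314 CPM. In bulk pools of this kind, fewer cells of a type and less RNA per cell cannot be told apart. Values without this population are given for many of the results below.

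Long non-coding RNAs are transcripts with no known protein product. Some act on chromatin or on nearby genes, and for many no role is known. An antisense RNA is read from the strand opposite another gene, and a pseudogene resembles a gene but lacks an intact reading frame, although it may still be transcribed. The fly testis is known for transcribing many long non-coding RNAs, some of them needed for sperm formation. The members are known by annotation numbers, and no function is assigned to them here.

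Of the 6 genes, 4 were higher and 2 were lower at 96 h than at 48 h, and in none of them did the 6 libraries of one age overlap the 6 of the other. Among all 13156 genes tested, 1.65% were higher at 96 h without overlap and 1.36% were lower without overlap. The choice of the 6 genes on this contrast fixes their count, so nothing is read from it. Averaged over both regimes, 206 of the 13156 genes, or 1.57%, were called (quasi-likelihood F test of edgeR, Benjamini-Hochberg adjusted p under 0.05), 112 higher and 94 lower. That share turned on the libraries in the fit. It was 6.95% (926 genes) without the 48 h library of monogamous population 1 and 0.577% to 0.750% (77 to 100 genes) without any 1 polygamous library. Without the 96 h library of monogamous population 1, 2 or 3 the count was 94, 134 or 116. The population as replicate block gave 445 genes (3.38%), DESeq2 611 (3.80%), and the block without monogamous population 1 2924 (22.1%). The sizes of the 6 changes spread widely. Ranked by the size of the log2 change among the 1526 non-coding genes tested, asRNA:CR45384 was number 3, lncRNA:CR44726 number 7, CR43086 number 10, lncRNA:CR44481 number 17, lncRNA:CR44672 number 45 and asRNA:CR45149 number 71.

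**Figure D1:**
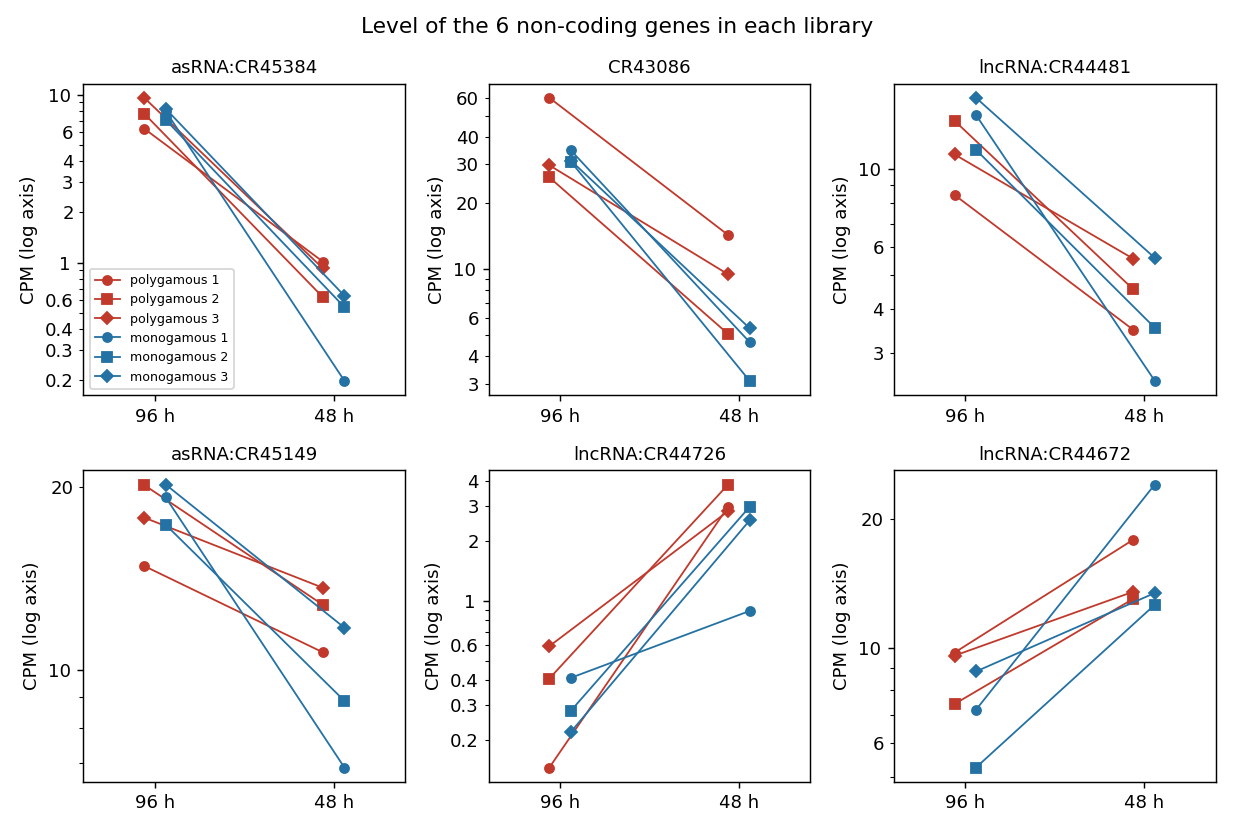
Level of each of the 6 genes in every library in CPM on a log axis, with 96 h left of 48 h and a line joining the 2 libraries of a population (red polygamous, blue monogamous, marker shape by population number). The 4 genes of the panels asRNA:CR45384, CR43086, lncRNA:CR44481 and asRNA:CR45149 are higher at 96 h in all 6 populations and the other 2 are lower.

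The gene asRNA:CR45384 (FBgn0266933, chromosome 3L, 20836112 to 20837135, minus strand, build BDGP6) has 1 exon of 1024 bases and had the largest rise of the 6. At 96 h it stood at 6.28, 7.71 and 9.58 CPM in polygamous populations 1, 2 and 3 and at 7.98, 7.08 and 8.24 CPM in monogamous populations 1, 2 and 3. At 48 h it stood at 1.01, 0.622 and 0.923 CPM in the polygamous and at 0.198, 0.543 and 0.635 CPM in the monogamous populations. It was thus scarce in every young pool and present at a similar level in every older one. The lowest value, in monogamous population 1, rested on 6 counts, and the 96 to 48 h ratio of that population was 40.3, against 6.20 to 13.0 in the other 5. Averaged over regimes the log2 change was 3.63 ± 0.23 (SE, 6 libraries against 6), or 12.4-fold, and it was 3.44 ± 0.18 without monogamous population 1.

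CR43086 (FBgn0262532, 3L, 17868740 to 17870573, plus strand) is annotated as a pseudogene of 3 exon blocks and 3 transcripts. Of its 1834 bases 1027 are exonic, and an INE-1 transposable element of 460 bases (3L, 17869141 to 17869600) lies between its exons without touching one. At 96 h it stood at 60.3, 26.2 and 29.7 CPM in polygamous and at 34.8, 30.9 and 31.2 CPM in monogamous populations 1, 2 and 3. At 48 h it stood at 14.3, 5.06 and 9.47 CPM in polygamous and at 4.65, 3.10 and 5.38 CPM in monogamous populations. Polygamous population 1 was the highest of the 6 populations at each age. The ratio of 96 to 48 h lay between 3.14 and 5.17 in polygamous and between 5.80 and 9.96 in monogamous populations, and the log2 change averaged over regimes was 2.45 ± 0.29, or 5.45-fold.

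The gene lncRNA:CR44481 (FBgn0265674, 2L, 11665241 to 11665810, plus strand) has 1 exon of 570 bases. At 96 h it stood at 8.46, 13.7 and 11.0 CPM in polygamous and at 14.3, 11.4 and 16.0 CPM in monogamous populations 1, 2 and 3. At 48 h it stood at 3.50, 4.56 and 5.57 CPM in polygamous and at 2.51, 3.55 and 5.60 CPM in monogamous populations. All 6 populations were higher at 96 h, by 1.98-fold in polygamous population 3 up to 5.69-fold in monogamous population 1. The log2 change averaged over regimes was 1.56 ± 0.20, or 2.94-fold, and 1.43 ± 0.21 without monogamous population 1.

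The gene asRNA:CR45149 (FBgn0266642, 2R, 21309395 to 21310146, minus strand), with 752 exonic bases and 2 transcripts, changed least of the 6. At 96 h it stood at 14.8, 20.2 and 17.8 CPM in polygamous and at 19.3, 17.4 and 20.2 CPM in monogamous populations 1, 2 and 3. At 48 h it stood at 10.7, 12.8 and 13.6 CPM in polygamous and at 6.89, 8.88 and 11.7 CPM in monogamous populations. The ages came close to each other here, since the lowest value at 96 h was 14.8 CPM and the highest at 48 h 13.6 CPM. The ratio of 96 to 48 h ran from 1.31 in polygamous population 3 to 2.79 in monogamous population 1, and the log2 change averaged over regimes was 0.78 ± 0.13, or 1.71-fold. Without monogamous population 1 the log2 change was 0.69 ± 0.12.

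Of the genes that were lower at 96 h, lncRNA:CR44726 (FBgn0265939, 2L, 13642821 to 13643230, plus strand) has 2 exons that hold 331 of its 410 bases. At 96 h it stood at 0.145, 0.407 and 0.592 CPM in polygamous and at 0.411, 0.280 and 0.219 CPM in monogamous populations 1, 2 and 3. At 48 h it stood at 2.98, 3.85 and 2.83 CPM in polygamous and at 0.891, 2.97 and 2.54 CPM in monogamous populations. The values at 96 h rested on 6 to 23 counts a library, and the 48 h library of monogamous population 1 was the lowest of its age. The 48 h level was 2.17 times the 96 h level in that population and 4.77 to 20.5 times in the other 5. The log2 change averaged over regimes was -2.94 ± 0.37, and -3.26 ± 0.31 without monogamous population 1.

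The gene lncRNA:CR44672 (FBgn0265883, 3L, 18475298 to 18475679, plus strand) has 1 exon of 382 bases. At 96 h it stood at 9.77, 7.41 and 9.61 CPM in polygamous and at 7.19, 5.27 and 8.83 CPM in monogamous populations 1, 2 and 3. At 48 h it stood at 17.9, 13.0 and 13.5 CPM in polygamous and at 24.0, 12.6 and 13.4 CPM in monogamous populations. The highest value, in the 48 h library of monogamous population 1, was in the library with the highest summed haemocyte and basement membrane markers, 382 CPM. The same library also had the highest summed fat body (233 CPM) and testis (7807 CPM) markers. Its main cell, secondary cell and muscle markers were the lowest of all libraries. Over all libraries the 8 haemocyte and basement membrane markers summed to 126 to 195 CPM at 96 h and to 206 to 382 CPM at 48 h. Of the 8, 2 fell with age by edgeR, and none was at 0 in every library. Their part in the fall of lncRNA:CR44672 was not tested. The log2 change of the gene was -0.98 ± 0.19, and -0.81 ± 0.16 without that population.

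Per length, on the scale of CPM per kilobase of exon (RPKM), the order of the mean levels differed between the ages. At 96 h CR43086 averaged 34.6 ± 12.1 RPKM (SD, n = 6), asRNA:CR45149 24.3 ± 2.74, lncRNA:CR44481 21.9 ± 4.74 and lncRNA:CR44672 21.0 ± 4.51 RPKM. The ranges of these 4 overlapped, while asRNA:CR45384 at 7.63 ± 1.09 RPKM and lncRNA:CR44726 at 1.04 ± 0.486 RPKM lay below them. Ranges do not pair the genes within a library, and the order at either age was not tested. Of the exonic bases, 890 of 1024 in asRNA:CR45384 and 498 of 752 in asRNA:CR45149 lie opposite exons of CG3288 and Arms. The strand setting of the counting is not given, so the levels per length of these 2 genes may be misjudged. At 48 h lncRNA:CR44672 led with 41.3 ± 11.8 RPKM, above asRNA:CR45149 at 14.3 ± 3.36 RPKM with no overlap. Below it, and overlapping it in part, lncRNA:CR44726 at 8.08 ± 2.96, lncRNA:CR44481 at 7.39 ± 2.19 and CR43086 at 6.81 ± 4.05 RPKM also overlapped each other, and asRNA:CR45384 was last at 0.640 ± 0.284 RPKM.

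The genes around the 6 loci were taken by position: every annotated gene that overlaps one of them, and the nearest protein-coding gene on each side, 14 genes in all. Of these 14, 2 rose and 1 fell with age (edgeR adjusted p under 0.05), against 1.57% of all tested genes called in either direction. The 3 were CG13255 beside asRNA:CR45384, and ics and CG18507 beside lncRNA:CR44726. Libraries were stranded, but the strand setting of the counting is not given in the sources used here. Reads of a gene and of a partner on the opposite strand may therefore not be told apart.

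**Figure D2:**
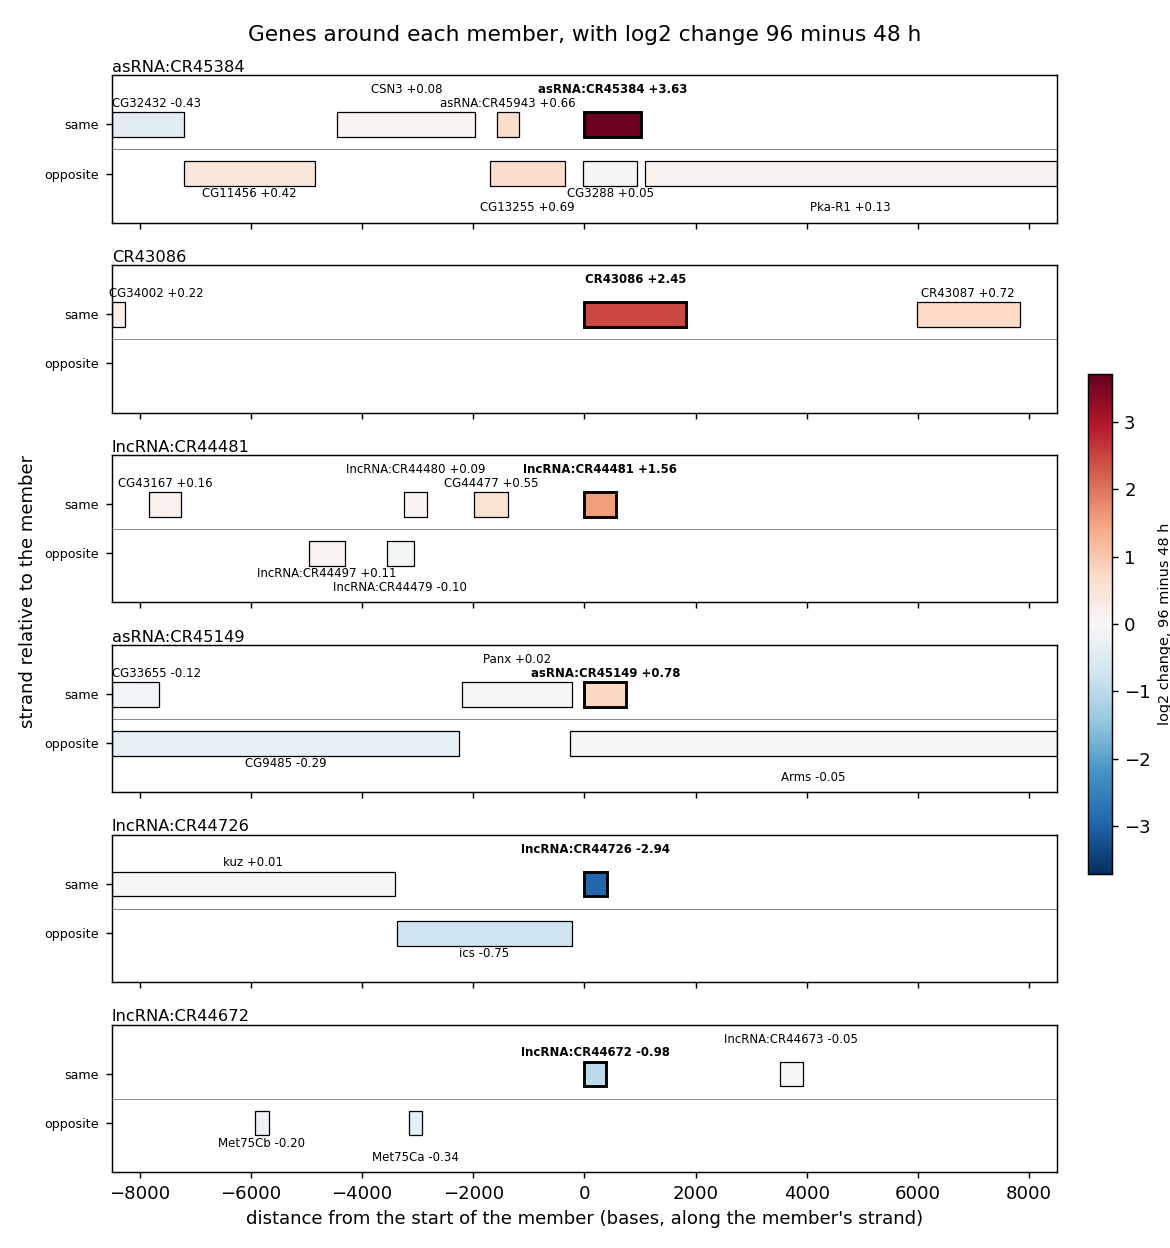
Genes within 8500 bases of the start of each of the 6 genes, drawn to scale along the strand of that gene (upper row same strand, lower row opposite strand) and coloured by the log2 change of 96 minus 48 h averaged over regimes. The genes CG13255 (0.69) and ics (-0.75), each starting close to the start of a member on the other strand, differ with age in the same direction as that member.

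CG13255, a protein-coding gene, lies head to head with asRNA:CR45384, on the plus strand with a gap of 352 bases (3L, 20837488 to 20838839). It stood at 80.8 to 95.6 CPM at 96 h and at 45.6 to 63.9 CPM at 48 h, so the ages did not overlap. It averaged 87.5 ± 5.30 CPM at 96 h and 54.2 ± 6.64 CPM at 48 h (SD, n = 6 each), and its log2 change was 0.69 ± 0.08 or 1.61-fold (edgeR adjusted p = 0.00329), higher in 6 of 6 populations. A further antisense gene, asRNA:CR45943, chosen after its value was seen, lies within CG13255 on the other strand and had a log2 change of 0.66, which was not called. Further genes of the same window were CSN3 (0.08) and CG32432 (-0.43), not called, and CG11456 (0.42), called. CG3288 shares 954 bases with asRNA:CR45384, 890 of them exonic, and reads from the other strand. It averaged 15.9 ± 0.91 CPM at 96 h and 15.4 ± 2.55 CPM at 48 h, with a log2 change of 0.05 ± 0.09 (edgeR adjusted p = 0.842, 95% interval -0.16 to 0.26). The overlapping gene thus lacked a change of the size seen in its antisense partner. With the population as replicate block and monogamous population 1 left out, CG3288 rose by 0.15 (edgeR adjusted p = 0.0406). Pka-R1, which encodes a regulatory subunit of protein kinase A and ends 63 bases from asRNA:CR45384, had a log2 change of 0.13 ± 0.05 (edgeR adjusted p = 0.224).

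At lncRNA:CR44726, the gene ics (2L, 13639447 to 13642602, minus strand) starts 218 bases away and reads in the opposite direction. It encodes a leucine-rich repeat protein of integrin adhesions. It stood at 9.22 to 10.5 CPM at 96 h and at 11.9 to 19.4 CPM at 48 h, again without overlap. Its averages were 9.99 ± 0.438 CPM at 96 h and 16.8 ± 2.58 CPM at 48 h, and its log2 change was -0.75 ± 0.10 (edgeR adjusted p = 0.00484), lower in 6 of 6 populations. CG18507, 22294 bases downstream, averaged 33.7 ± 1.67 CPM at 96 h and 26.8 ± 5.13 CPM at 48 h and rose 1.27-fold (0.35 ± 0.07, edgeR adjusted p = 0.0485), higher in 5 of 6 populations. That call was lost with the population as replicate block (edgeR adjusted p = 0.0580) and in 13 of 18 alternatives in all. Those 13 included leaving out any of the 6 polygamous libraries, any of the 3 monogamous libraries at 96 h, or the 48 h library of monogamous population 2. The calls of CG13255 and ics held in all 18 alternatives.

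The other 9 neighbours were not called either. CG44477 (1368 bases upstream of lncRNA:CR44481, same strand) stood at 5.20 to 5.98 CPM at 96 h and at 1.72 to 4.57 CPM at 48 h. Although its ages did not overlap, its log2 change of 0.55 ± 0.17 missed the threshold (edgeR adjusted p = 0.155), and it was called without monogamous population 1 (0.38, edgeR adjusted p = 0.0240). Arms contains all 752 bases of asRNA:CR45149 on the other strand, 498 of them in its own exons, and averaged 44.0 ± 3.03 CPM at 96 h and 45.9 ± 8.09 CPM at 48 h (-0.05 ± 0.10, edgeR adjusted p = 0.822, 95% interval -0.27 to 0.16). Panx, whose protein acts in transcriptional silencing guided by piRNAs, lies 221 bases upstream of asRNA:CR45149 on the same strand and had a log2 change of 0.02 ± 0.06. The rest had log2 changes of 0.22 ± 0.23 (CG34002, and 0.045 without monogamous population 1) and 0.05 ± 0.12 (CG7408) beside CR43086, -0.18 ± 0.08 (CG4988, and -0.083 without that population) beside lncRNA:CR44481, 0.06 ± 0.18 (CG9752, and 0.02 without it) beside asRNA:CR45149, and -0.34 ± 0.23 (Met75Ca) and 0.19 ± 0.24 (AstC-R2, an allatostatin C receptor gene) beside lncRNA:CR44672.

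**Figure D3:**
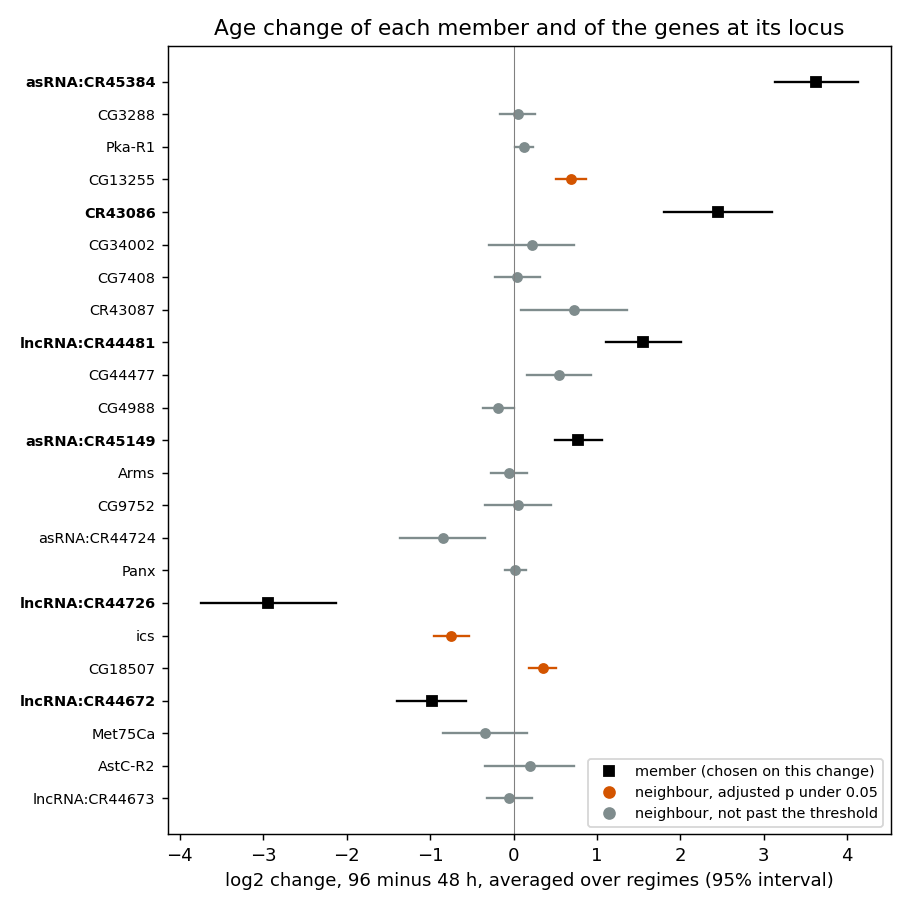
Log2 change of 96 minus 48 h averaged over regimes, with its 95% interval, for each of the 6 genes (black squares, bold names) and below each the genes at its locus (circles). Orange circles mark the 3 neighbours called by edgeR, CG13255, ics and CG18507, and grey circles those not called.

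On 1 side of 3 members a non-coding gene lies nearer than the nearest protein-coding gene of that side that does not overlap them, and these 3 were added after their values were seen. CR43087, another annotated pseudogene, lies 4141 bases downstream of CR43086 on the same strand (3L, 17874715 to 17876573). It averaged 11.9 ± 3.04 CPM at 96 h and 7.73 ± 4.53 CPM at 48 h, higher in 6 of 6 populations although the ages overlapped. Its log2 change of 0.72 ± 0.28 was not called (edgeR adjusted p = 0.241) but was called with the population as replicate block (0.77, edgeR adjusted p = 0.0446). Without monogamous population 1 the change was 0.57 and not called (edgeR adjusted p = 0.407). With the block and without that population it was called (0.60, edgeR adjusted p = 0.00778). The sequences of the 2 pseudogenes were not compared here, so their counts may share reads. asRNA:CR44724 near asRNA:CR45149 had a log2 change of -0.85 ± 0.23 (edgeR adjusted p = 0.101), the opposite direction to that member, and lncRNA:CR44673 near lncRNA:CR44672 one of -0.05 ± 0.12 (edgeR adjusted p = 0.882).

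The level of each member was compared with that of every other tested gene over the 12 libraries, by Pearson r of log2 CPM. Such an r mixes the change with age and the differences between populations, and the points share library, depth and population, so r is given as a description. The r of the deviations from the 4 group means takes the age change out. For lncRNA:CR44481 the most alike of 13155 genes was asRNA:CR45149, another member on another chromosome, with r = 0.966 over libraries and r = 0.990 for the deviations. By the deviations each of the pair was the other's most alike gene, with r = 0.989 over the 10 libraries that remain without monogamous population 1. The pair was lowest in the 48 h library of monogamous population 1 and, at both ages, lowest among polygamous libraries in population 1. Among monogamous libraries of 48 h both were highest in population 3.

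**Figure D4:**
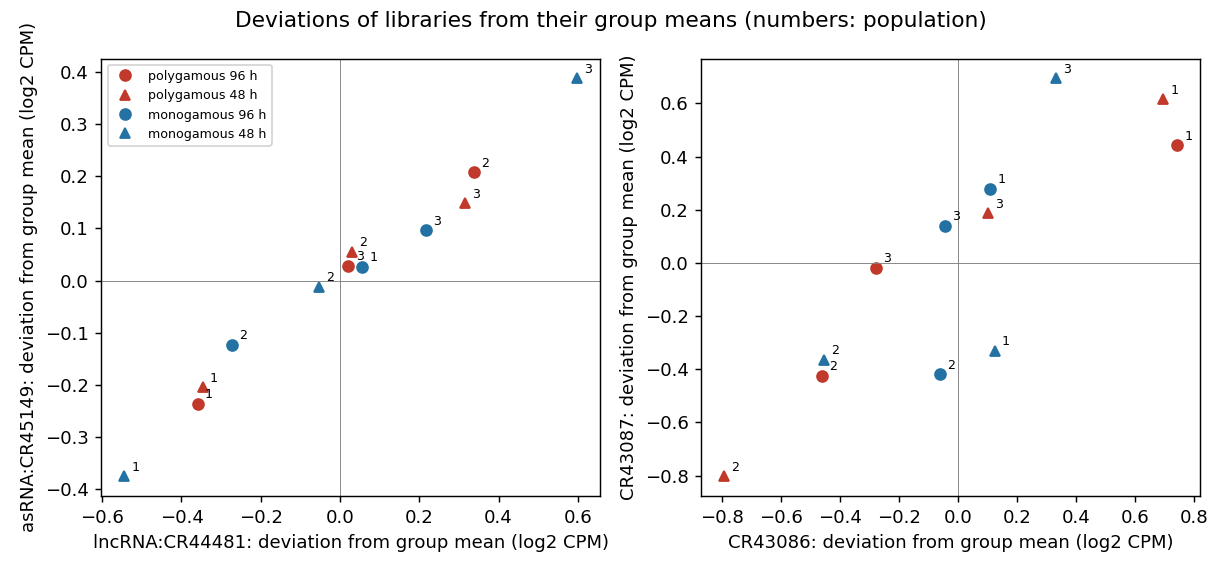
Deviation of each library from its group mean in log2 CPM, for lncRNA:CR44481 against asRNA:CR45149 (left, r = 0.990) and CR43086 against its neighbouring pseudogene CR43087 (right, r = 0.851), with circles for 96 h, triangles for 48 h, red for polygamous, blue for monogamous, and the population number beside each point. The left points lie close to a line, and the right points are looser.

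CR43086 and CR43087 deviated together, with r = 0.851 over 12 libraries and 0.920 over the 10 without monogamous population 1. By the deviations CR43087 was only number 16 of 13155 genes in likeness to CR43086, and number 39 without that population. By r over libraries it was number 146. For both pseudogenes the libraries of polygamous population 1 lay high and those of polygamous population 2 low at both ages. Neighbours that changed with age did not all follow their member within groups. For lncRNA:CR44726 and ics the r of deviations was 0.698 over 12 libraries and 0.219 over 10, and for asRNA:CR45384 and CG13255 it was -0.55 over 12 and 0.691 over 10. The sign of the second pair thus turned on monogamous population 1. The deviations of asRNA:CR45384 and its overlapping gene CG3288 gave -0.84 over 12 libraries and -0.27 over 10.

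The 3 most alike genes of each member were mostly protein-coding, as were 11416 of all 13156 genes tested. For asRNA:CR45384 they were CG4364 (r = 0.976), FANCI (0.968), a gene of the Fanconi anaemia DNA repair pathway, and ras (0.965), which encodes the inosine monophosphate dehydrogenase of guanine nucleotide synthesis. For CR43086 they were CG42521 (0.962), asRNA:CR45889 (0.947) and CG1637 (0.943). After asRNA:CR45149, lncRNA:CR44481 was most like CG6403 (0.963) and Bacc (0.957). asRNA:CR45149 was most like mdu (0.977), asRNA:CR46018 (0.969) and lncRNA:CR44481. Those of these genes that are not members were all called with age by edgeR, so the r over libraries holds that change. The r of deviations was 0.820 (CG4364), 0.682 (FANCI), 0.904 (ras), 0.853 (CG42521), 0.538 (asRNA:CR45889), 0.624 (CG1637), 0.753 (CG6403), 0.903 (Bacc), 0.929 (mdu) and 0.890 (asRNA:CR46018). asRNA:CR45889 averaged only 0.0392 CPM at 48 h.

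The genes most like the 2 falling members belonged to other kinds. lncRNA:CR44726 was most like Obp56e (r = 0.969), an odorant-binding protein gene, Sfp79B (0.964), a seminal fluid protein gene, and its neighbour ics (0.960). lncRNA:CR44672 was most like SPARC (0.972), which encodes a collagen-binding matrix protein, vkg (0.968), a collagen IV chain of basement membranes, and yip2 (0.962). SPARC and vkg are 2 of the 8 haemocyte and basement membrane markers above, and they are the 2 that fell. The r of deviations with those of lncRNA:CR44672 was 0.936 for SPARC, 0.911 for vkg and 0.941 for yip2. Without monogamous population 1 the r over libraries was 0.978, 0.960 and 0.945. With lncRNA:CR44726 the r of deviations was 0.770 for Obp56e, 0.717 for Sfp79B and 0.698 for ics. All genes named in this paragraph beside the members were themselves called with age by edgeR.

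The mating regimes were compared at each age, a contrast that the choice of the 6 genes did not use. At 48 h the level of CR43086 was 9.61 ± 4.62 CPM in polygamous and 4.38 ± 1.17 CPM in monogamous males (SD, n = 3 each), that of asRNA:CR45384 0.853 ± 0.205 and 0.459 ± 0.230 CPM, and that of asRNA:CR45149 12.4 ± 1.53 and 9.17 ± 2.43 CPM. These were the largest 48 h differences relative to their error, and none was called. The log2 differences, polygamous minus monogamous, were 1.13 ± 0.41 for CR43086 (95% interval 0.21 to 2.05, edgeR adjusted p = 0.260), 0.87 ± 0.34 for asRNA:CR45384 (0.12 to 1.63, edgeR adjusted p = 0.271) and 0.43 ± 0.18 for asRNA:CR45149 (0.03 to 0.83, edgeR adjusted p = 0.280). Without monogamous population 1 they were 1.17, 0.53 and 0.26. The others were 0.22 ± 0.29 for lncRNA:CR44481, 0.59 ± 0.46 for lncRNA:CR44726 and -0.17 ± 0.26 for lncRNA:CR44672, and without that population these were -0.01, 0.22 and 0.18.

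At 96 h edgeR called no gene between the regimes either. CR43086 averaged 38.7 ± 18.8 CPM in polygamous and 32.3 ± 2.16 CPM in monogamous males, asRNA:CR45384 7.86 ± 1.66 and 7.77 ± 0.608 CPM, and lncRNA:CR44481 11.1 ± 2.64 and 13.9 ± 2.33 CPM. The log2 differences ran from -0.33 ± 0.28 for lncRNA:CR44481 (95% interval -0.94 to 0.29) to 0.33 ± 0.27 for lncRNA:CR44672 (-0.26 to 0.92). With 1 library left out they ranged from -0.51 (without polygamous population 2 at 96 h) to -0.16 (without polygamous population 1 at 96 h) for lncRNA:CR44481, and from 0.16 (without monogamous population 2 at 96 h) to 0.53 (without monogamous population 3 at 96 h) for lncRNA:CR44672. Without the 96 h library of polygamous population 1, which was the highest for CR43086, the difference of that gene was -0.21, against 0.26 with it. The widest 96 h interval was that of lncRNA:CR44726, -0.88 to 1.53, and the narrowest that of asRNA:CR45149, -0.49 to 0.28, so a missed threshold does not show equal levels.

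None of the 6 genes was called between regimes at 48 h, at 96 h or over the summed libraries of each population, and the edgeR test called 0.00% of all genes in each of these comparisons. At an unadjusted p under 0.05 there were 2256 genes at 48 h, 439 at 96 h and 1285 over the sums. At 48 h these 2256 were 17.1% of the genes tested, and 3 of the 6 were among them (CR43086, asRNA:CR45384 and asRNA:CR45149). With 1 library left out, the 48 h count ranged from 1233 (without polygamous population 1 at 48 h) to 3961 (without monogamous population 3 at 48 h) and the 96 h count from 276 (without polygamous population 1 at 96 h) to 896 (without monogamous population 1 at 48 h). With 1 population left out, the count over the sums ranged from 530 (without polygamous population 1) to 2193 (without monogamous population 3). DESeq2, another count model, called 138 genes at 48 h, 24 at 96 h and 78 over the sums, with none of the 6 among them. Without the 96 h library of monogamous population 2 edgeR called 17 genes at 96 h, again with none of the 6. Over the sums the log2 differences of the 6 lay between -0.22 for lncRNA:CR44481 and 0.58 for lncRNA:CR44726.

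The age change of the 4 rising genes was larger in monogamous than in polygamous males, without passing a test of the difference. It was 3.20 ± 0.31 on the log2 scale in polygamous and 4.06 ± 0.33 in monogamous males for asRNA:CR45384, 2.01 ± 0.40 and 2.88 ± 0.42 for CR43086, 1.28 ± 0.29 and 1.83 ± 0.29 for lncRNA:CR44481, and 0.51 ± 0.18 and 1.04 ± 0.18 for asRNA:CR45149. For the falling genes it was -3.07 ± 0.51 and -2.80 ± 0.52 (lncRNA:CR44726) and -0.73 ± 0.27 and -1.23 ± 0.27 (lncRNA:CR44672). The difference of the changes, polygamous minus monogamous, ran from -0.87 ± 0.56 (CR43086) to 0.50 ± 0.37 (lncRNA:CR44672), with edgeR adjusted p from 0.920 to 0.960. The narrowest interval was that of asRNA:CR45149, -1.09 to 0.02. Over all genes edgeR called 0.00% (336 at an unadjusted p under 0.05, and 0 by DESeq2). With the population as replicate block and monogamous population 1 left out it called 110 genes (0.832%), 0 of the 6 among them, and without the 96 h library of monogamous population 2 it called 3. Without monogamous population 1 the difference shrank to -0.49 for asRNA:CR45384, to -0.29 for lncRNA:CR44481, to -0.36 for asRNA:CR45149 and to 0.16 for lncRNA:CR44672. It was -0.85 for CR43086 and turned to 0.37 for lncRNA:CR44726. For CR43086 it was -0.47 without the 48 h library of polygamous population 1 and -1.34 without its 96 h library.

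**Figure D5:**
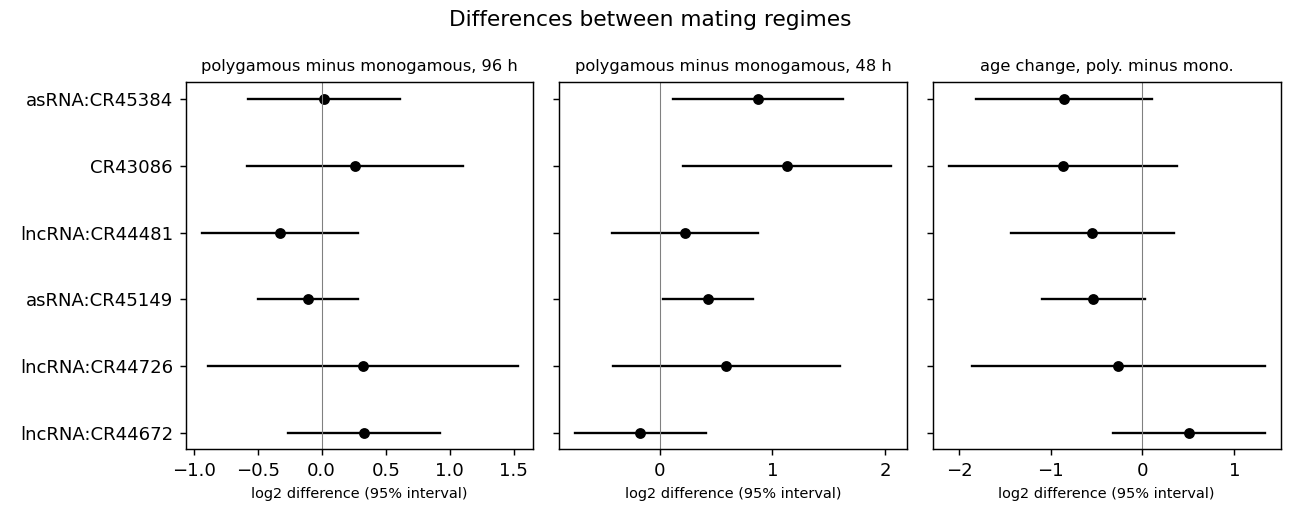
Log2 difference of polygamous minus monogamous males with its 95% interval for each of the 6 genes at 96 h (left), at 48 h (middle) and for the age change of 96 minus 48 h (right). At 48 h the intervals of asRNA:CR45384, CR43086 and asRNA:CR45149 lie above 0 before adjustment over all genes, and no adjusted p was under 0.05.

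Among all non-coding genes, 28 of the 1526 tested were called with age, or 1.83%, and the 6 genes are among these 28. The median log2 change was -0.03 over the 1526 and 0.01 over all tested genes, and of 11416 protein-coding genes 177, or 1.55%, were called. By class, 9 long non-coding genes rose and 12 fell of 1083, 5 antisense genes rose and 0 fell of 320, and of 86 pseudogenes only CR43086 was called. Of 12 small nucleolar or nuclear RNAs 0 were called by edgeR (0 at an unadjusted p under 0.05), and of 25 others 1 rose, tRNA:Ala-AGC-1-1. With the population as replicate block the non-coding count was 64, by DESeq2 60 and without monogamous population 1 66, and all 28 were among those called in each. These counts were 4.19%, 2.22% and 4.26% of the non-coding genes tested, where the same fits called 3.38%, 3.80% and 6.19% of all genes. Leaving out the 48 h library of that population alone also gave 66, and its 96 h library 16. Without 1 polygamous library the count was 19 and 15 (population 1 at 48 and 96 h), 18 and 16 (population 2 at 48 and 96 h), or 16 and 14 (population 3 at 48 and 96 h).

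Outside the 6, and with a mean of at least 1 CPM, the called non-coding genes with the largest rises were lncRNA:CR45901 (3R, 6833363 to 6834247, plus strand), lncRNA:CR43794 (2R, 23507078 to 23507832, minus strand) and asRNA:CR45813 (3L, 1549448 to 1549900, minus strand). lncRNA:CR45901 averaged 3.18 ± 0.908 CPM at 96 h and 1.20 ± 0.453 CPM at 48 h (SD, n = 6 each), a log2 change of 1.42 ± 0.25 (edgeR adjusted p = 0.0207). Its call was lost without the 96 h library of polygamous population 1 or either library of polygamous population 3. lncRNA:CR43794 changed by 1.29 ± 0.18 and asRNA:CR45813 by 1.17 ± 0.18. lncRNA:CR45901 lies opposite the Hox gene Scr, as do 2 further called long non-coding genes, lncRNA:CR45905 (1.13 ± 0.25) and lncRNA:CR45904 (0.92 ± 0.20), which were picked out after their values were seen.

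The largest falls outside the 6 were those of lncRNA:CR44711 (X, 21583802 to 21584575, plus strand), lncRNA:CR43661 (2R, 17306759 to 17307302, minus strand) and lncRNA:CR44675 (3L, 19052302 to 19052790, plus strand). lncRNA:CR44711 averaged 0.354 ± 0.467 CPM at 96 h and 4.88 ± 1.63 CPM at 48 h, with a log2 change of -3.88 ± 0.62 (edgeR adjusted p = 0.0154). Its 96 h values ran from 0.0543 to 1.29 CPM, the lowest below the level of 3 counts, so its fold is imprecise. With 1 library left out its log2 change ranged from -5.09 to -3.63. lncRNA:CR43661, which lies opposite mbl, averaged 1.24 ± 0.444 CPM at 96 h and 6.83 ± 2.85 CPM at 48 h (-2.43 ± 0.30, edgeR adjusted p = 0.00446). lncRNA:CR44675 changed by -1.69 ± 0.26.

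The calls of named long non-coding RNAs of the fly turned on the fit. Of 25 such names 13 were found in the tables by symbol and 9 passed the filter, and the other 12 names are not analysed here. By edgeR 0 of the 9 were called, where 1.57% of all genes were, with a median log2 change of 0.05 beside 0.01 over all genes. At an unadjusted p under 0.05 there were 4 of the 9, against 17.0% of all genes. DESeq2 called 2 of 13, where it called 3.80% of all genes. With the population as replicate block edgeR called 2 of 9, against 3.38% of all genes. With the block and without monogamous population 1, 4 of 10 were called (Hsromega, sphinx, roX2 and let7C), against 22.1% of all genes. roX1, which takes part in dosage compensation of the X chromosome, averaged 107 ± 6.18 CPM at 96 h and 89.6 ± 18.6 CPM at 48 h (0.26 ± 0.12, edgeR adjusted p = 0.317), and its change was 0.15 without monogamous population 1. Hsromega, a stress-induced nuclear RNA, averaged 21.7 ± 0.856 CPM at 96 h and 25.4 ± 1.79 CPM at 48 h (-0.23 ± 0.05, edgeR adjusted p = 0.0668). It was called with the population as replicate block (edgeR adjusted p = 0.0485), by DESeq2 (adjusted p = 0.00334) and by edgeR without monogamous population 1 (adjusted p = 0.0358). The second gene called by DESeq2 and with the block was sphinx, at 2.70 ± 0.894 CPM at 96 h and 1.16 ± 0.849 CPM at 48 h (1.44 ± 0.33, edgeR adjusted p = 0.0628). iab8, of the bithorax complex, averaged 13.5 ± 1.18 CPM at 96 h and 11.9 ± 4.74 CPM at 48 h (0.23 ± 0.24, edgeR adjusted p = 0.675), and its change was 0.013 without that population.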

How the data were processed

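Per the labels' protocols, RNA from pooled tracts was made into stranded total RNA libraries. The deposited values are raw read counts per gene, which the authors made with HTSeq 0.6.1 after Trimmomatic 0.33 and TopHat2 2.1.0 on build BDGP6, as their submitters' processing notes list the tools. The annotation release and the strand setting are not given in the sources used here. The 5 summary lines of each file held 15.1% to 17.2% of its reads (ambiguous reads 2.82% to 3.26%) and entered neither the library sizes nor any test.

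Ensembl's BDGP6.54 annotation gave gene names, positions and types, with a symbol for 17253 of 17559 identifiers. Tests used edgeR 4.0.16 under R 4.3.3 (quasi-likelihood, robust, TMM, filterByExpr), with 1 coefficient per group of regime and age and 1 fit over the 12 libraries. P-values were adjusted by Benjamini-Hochberg over all 13156 genes that passed the filter (13512 for population sums), with a threshold of 0.05. Errors of log2 changes are standard errors from the fit. Correlations used log2 CPM with a prior count of 2. The script was tested on simulated data with 200 changed genes.

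The alternatives were other size factors (RLE), no filter, DESeq2 1.42.0, each library left out, monogamous population 1 left out, and a replicate block. The 2 libraries of a population come from the same line and deviated together from their group means (r of 0.390 to 0.570 over genes), so the population is a true block for age. The population numbers do not pair lines across regimes (r of -0.15 to 0.199). No pair of replicate files held identical values or agreed within sampling noise.

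The 6 genes, the neighbours, the marker lists and the list of named long non-coding RNAs were chosen with earlier results of these data known. Most genes were named by rule: the members, overlapping genes, the nearest protein-coding genes, the 3 most alike genes of each member, the named long non-coding RNAs averaging 5 CPM or more, and the 3 largest called non-coding changes in each direction among genes averaging 1 CPM or more. Outside these rules were the further genes of the asRNA:CR45384 window and the nearer non-coding neighbours. So were lncRNA:CR45904, lncRNA:CR45905, tRNA:Ala-AGC-1-1, sphinx, roX2 and let7C, which were named because they were called in some fit. Marker lists covered main cells, secondary cells, ejaculatory duct and bulb, testis, fat body, haemocytes with basement membrane, muscle, gut, neurons and ovary. Those of muscle summed to 744 to 857 CPM at 96 h and 543 to 1076 CPM at 48 h, those of gut to 30.3 to 66.6 and 26.1 to 34.7 CPM, those of neurons to 37.3 to 46.1 and 33.5 to 44.7 CPM, and those of ovary to 0.751 to 1.44 and 0.363 to 1.18 CPM. No sequences were at hand, so promoter motifs were not searched.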

Additional observations from a re-analysis of the deposited data

Results flagged for a closer look

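For 3 genes, all 3 polygamous populations moved one way between 48 and 96 h and all 3 monogamous populations the other way. The share of all genes with such a split was not computed, so nothing is read from that count. CG34002, the protein-coding neighbour upstream of CR43086, was at 69.4 ± 2.59 CPM at 96 h and 77.6 ± 1.91 CPM at 48 h in polygamous males, and at 74.1 ± 7.17 CPM at 96 h and 49.1 ± 26.1 CPM at 48 h in monogamous males (SD, n = 3 each). The difference of its log2 changes was -0.75 ± 0.46 (edgeR adjusted p = 0.920), and its lowest value, 20.7 CPM, was that of the 48 h library of monogamous population 1. Without that population the difference was -0.41 ± 0.16 (edgeR adjusted p = 1.00). AstC-R2, the neighbour downstream of lncRNA:CR44672, was at 0.792 ± 0.291 CPM at 96 h and 0.458 ± 0.148 CPM at 48 h in polygamous males, and at 0.502 ± 0.102 CPM at 96 h and 0.664 ± 0.0381 CPM at 48 h in monogamous males. Its difference of log2 changes was 1.19 ± 0.49 (edgeR adjusted p = 0.920), and its values rested on 10 to 42 counts a library. lncRNA:iab8 was at 13.6 ± 1.12 CPM at 96 h and 15.0 ± 1.78 CPM at 48 h in polygamous males, and at 13.3 ± 1.45 CPM at 96 h and 8.73 ± 4.81 CPM at 48 h in monogamous males, where its lowest value, 3.36 CPM, was again in the 48 h library of population 1. Its difference was -0.74 ± 0.49 (edgeR adjusted p = 0.920), and -0.31 ± 0.19 without that population (edgeR adjusted p = 1.00). None of the 3 differences passed the test.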

How the results depend on the processing

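The 6 genes kept the direction of their age change under all 18 alternatives. They were chosen on that change and their ages did not overlap, so the direction could hardly turn and nothing is read from it. None of the 6 was called between regimes or for the difference of age changes under any alternative run. Of 28 non-coding genes called with age, the count was 60 by DESeq2, 66 without monogamous population 1, 64 with the replicate block and 189 with the block and without that population, and it ranged from 14 to 66 when 1 library was left out. The shares of non-coding genes were 2.22%, 4.26%, 4.19% and 12.2% in these 4 settings, against 3.80%, 6.19%, 3.38% and 22.1% of all genes. The count of called neighbours was 3, 5 of 14 with the replicate block and without monogamous population 1, where 22.1% of all genes were called, and 2 to 4 when 1 library was left out. Besides the calls given above, asRNA:CR44724 was called (-0.80) with the block and without that population, and the block over all libraries changed no other call among the genes named by rule. The cause of these shifts was not tested.

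Without monogamous population 1, signs turned for the regime difference at 48 h of lncRNA:CR44481 (-0.013) and lncRNA:CR44672 (0.18), the difference of age changes of lncRNA:CR44726 (0.37, and 0.35 with the block), and the age changes of CG7408 (-0.049, and -0.055 with the block) and lncRNA:CR44673 (0.0076, and 0.0059 with the block). With the population number as replicate block across regimes, the 96 h difference of asRNA:CR45384 was -0.0038. With 1 library left out, the 48 h differences ranged from -0.013 to 0.59 (lncRNA:CR44481) and from -0.34 to 0.19 (lncRNA:CR44672), and the 96 h differences from -0.15 to 0.16 (asRNA:CR45384), -0.21 to 0.49 (CR43086), -0.21 to 0.0062 (asRNA:CR45149) and -0.14 to 0.72 (lncRNA:CR44726). The difference of age changes of lncRNA:CR44726 then ranged from -0.73 to 0.13, and age changes from -0.0062 to 0.15 (CG3288), -0.035 to 0.11 (CG7408), -0.13 to 0.012 (Arms), -0.027 to 0.21 (CG9752) and -0.094 to 0.044 (lncRNA:CR44673). All these were within their error of 0 with every library in.

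With 3 lines a regime, the regime intervals are wide. lncRNA:CR44726 and lncRNA:CR44711 at 96 h, and asRNA:CR45384 in the 48 h library of monogamous population 1, rest on few counts, so their folds are imprecise.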
